A study of Arabidopsis thaliana with 6 samples.

Results

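The WRKY genes of *Arabidopsis* encode plant transcription factors, and 53 of them, given as a list of AGI codes, were examined for acetylation of lysine 9 of histone H3 (H3K9Ac). They were found among 72 genes that carry a WRKY name in the TAIR10.1 annotation, which holds 27444 protein-coding genes on the nuclear chromosomes. Counts and shares given below for the family or its groups refer to the 53 listed genes. A gene was called marked when an H3K9Ac peak overlapped its body or the 500 bp upstream of its transcription start site (TSS) by at least 1 bp. No measured value entered the rule for the genes, although they were chosen with earlier results of these data known. The annotation lists WRKY1 as ZAP1, WRKY16 as TTR1 and WRKY44 as TTG2.

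All chromatin came from *ein2-5* seedlings, which carry a loss-of-function allele of EIN2, the membrane protein that relays the ethylene signal to the nucleus. The seedlings were grown in darkness for 3 days and then kept for 4 h in air or in 10 ppm ethylene. Each treatment comprised 2 H3K9Ac ChIP-seq libraries and 1 control library, which the labels describe as IgG in one field and as Protein G beads in another. Whole seedlings were used, so the values average over cell types, and a smaller number of marked cells cannot be told apart from less acetylation per cell.

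The peak caller had joined the H3K9Ac libraries of a treatment before calling, which left a single peak list for air and a single list for ethylene. No spread between seedling batches could therefore be computed, and every air-ethylene comparison below is a description of 2 pooled lists. The air list held 18314 peaks from 45582654 H3K9Ac tags, and the ethylene list held 12864 peaks from 43572576 tags. The depth of the controls was less even, with 13726993 control tags for air and 4354374 for ethylene.

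WRKY proteins take their name from a short conserved peptide, which is followed by a zinc finger and contacts a DNA element called the W box. Group I members have a pair of these domains, group II members have a single domain with a C2H2 finger and fall into subgroups IIa to IIe, and group III members have a C2HC finger. The family is best known for the transcriptional control of defence, senescence and nutrient responses, and many of its genes are induced within a short time of pathogen attack. H3K9Ac is a mark of the 5′ part of transcribed genes.

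The coding sequence of the domain was located in each gene first, since it defines the family and fixes where the DNA-binding part lies relative to the peaks. A search of the TAIR10.1 (RefSeq) coding sequences found 63 heptad sites of 21 bases, each inside a single exon, in all 53 genes. In 10 genes there were 2 sites, and these 10 were group I members. WRKY10 was the only group I gene in which this search found 1 site. The finger had the C2HC form in the 8 group III genes, and its pattern was not found in WRKY19 and WRKY36.

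The heptad read WRKYGQK at 61 sites and WRKYGKK at 2, those of WRKY50 and WRKY51. The search left residue 6 free and allowed few changes at the other residues, so sites with other changes could be missed. The 63 sites were written in 51 different nucleotide sequences, and the most frequent of these occurred 3 times. The following sites are shown 5′ to 3′ on the coding strand because they include the variant form and 3 sites that lay under H3K9Ac peaks, and the capitals mark the codon of residue 6, the residue that varied.
WRKY33, N-terminal site, chr2:16109358-16109378, plus strand: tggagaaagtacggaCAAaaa
WRKY33, C-terminal site, chr2:16109982-16110002, plus strand: tggagaaaatacggcCAGaaa
WRKY15, chr2:9925831-9925851, plus strand: tggaggaaatacggaCAAaaa
WRKY22, chr4:523503-523523, minus strand: tggcgaaagtacggaCAGaaa
WRKY75, chr5:4150786-4150806, minus strand: tggaggaaatatggcCAAaag
WRKY50, chr5:9147579-9147599, minus strand: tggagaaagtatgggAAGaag
WRKY51, chr5:25908864-25908884, plus strand: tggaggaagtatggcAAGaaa

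H3K9Ac peaks were found at most WRKY genes in air and at fewer of them in ethylene. In air, 39 of the 53 genes (73.6%) were marked, against 60.9% of all coding genes. In ethylene, 31 (58.5%) were marked, against 46.0% of all coding genes. The drop between the lists was thus present in the family and across the genome. In the family it was absent with the air list shortened to the length of the ethylene list. In that setting 27 WRKY genes were marked in air, against 31 in ethylene. A peak in both lists was found for 30 WRKY genes (56.6%, against 45.8% of all coding genes), and no peak in either list for 13 (24.5%, against 38.9%). A peak in air only was found for 9 (17.0%, against 15.1%), and a peak in ethylene only for 1, WRKY41 (1.89%, against 0.128%).

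Gene length differed little between the family and the genome, with a median of 2246 bp for the WRKY genes and 2078 bp for all coding genes. Among the 21 WRKY genes of 1000 to 2000 bp, 61.9% were marked in air and 42.9% in ethylene, against 55.2% and 42.8% of all coding genes of that length. Among the 20 of 2000 to 3000 bp, 80.0% and 70.0% were marked, against 72.7% and 56.6%. Among the 10 of 3000 to 6000 bp, 90.0% and 70.0% were marked, against 77.2% and 57.3%. The WRKY shares were thus above those of all coding genes in each class in air, while in ethylene the shares of the shortest class were nearly equal. With 21, 20 and 10 WRKY genes in the classes, a few genes make up these differences, which were not tested.

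**Figure D1:**
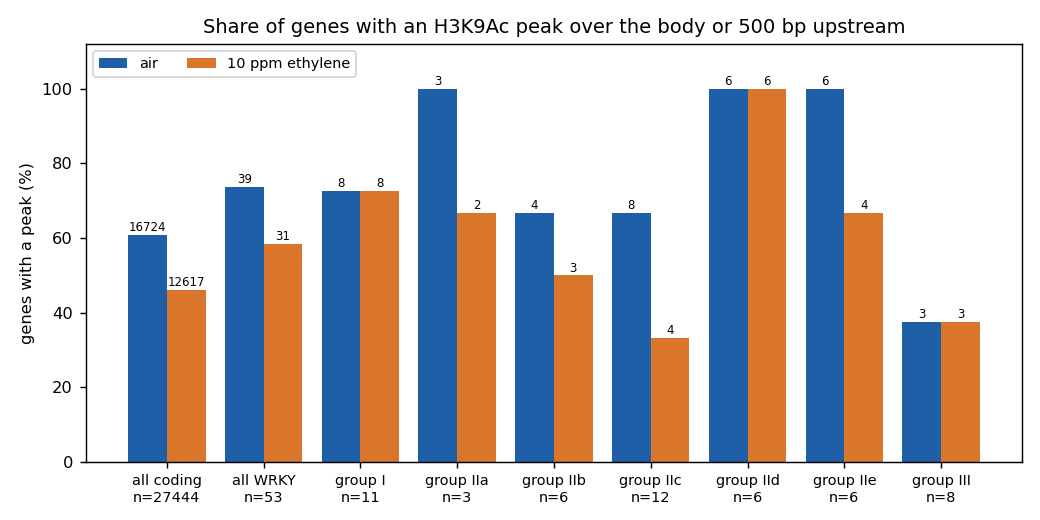
Bars show the percentage of genes with at least 1 H3K9Ac peak over the body or 500 bp upstream in air (blue) and in 10 ppm ethylene (orange) for all coding genes, all 53 WRKY genes and each WRKY group, with the number of marked genes above each bar; WRKY19, which has no group, is included in all WRKY. All 6 group IId genes were marked in both lists, whereas 3 of the 8 group III genes were marked in each.

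The groups differed in how many of their members carried the mark and in how broad it was. Every group IId gene was marked in both lists, with a median summed breadth of 1126 bp in air and a median of 51.3% of the gene body under peaks. Group IIe genes were all marked in air (6 of 6) with a median of 1136 bp, and 4 of them in ethylene. Group I had 8 of 11 genes marked in both lists, with a median of 892 bp in air. Group IIb had 4 of 6 genes marked in air, at a median of 726 bp, and 3 in ethylene. Group IIa had all 3 genes marked in air and group III 3 of 8, and their medians in air were the lowest, 433 bp and 448 bp. Group IIc had 8 of 12 genes marked in air and 4 in ethylene. Of all coding genes, 60.9% were marked in air and 46.0% in ethylene. With the air list shortened to the length of the ethylene list, WRKY13, WRKY23, WRKY28 and WRKY75 of group IIc lost their air mark. So did WRKY46, WRKY53 and WRKY70, the 3 group III genes marked in air. The other losses were WRKY60 (IIa), WRKY31 (IIb), WRKY21 (IId), and WRKY29 and WRKY35 (IIe). The groups hold 3 to 12 of the listed genes each, and the differences between groups were not tested.

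**Figure D2:**
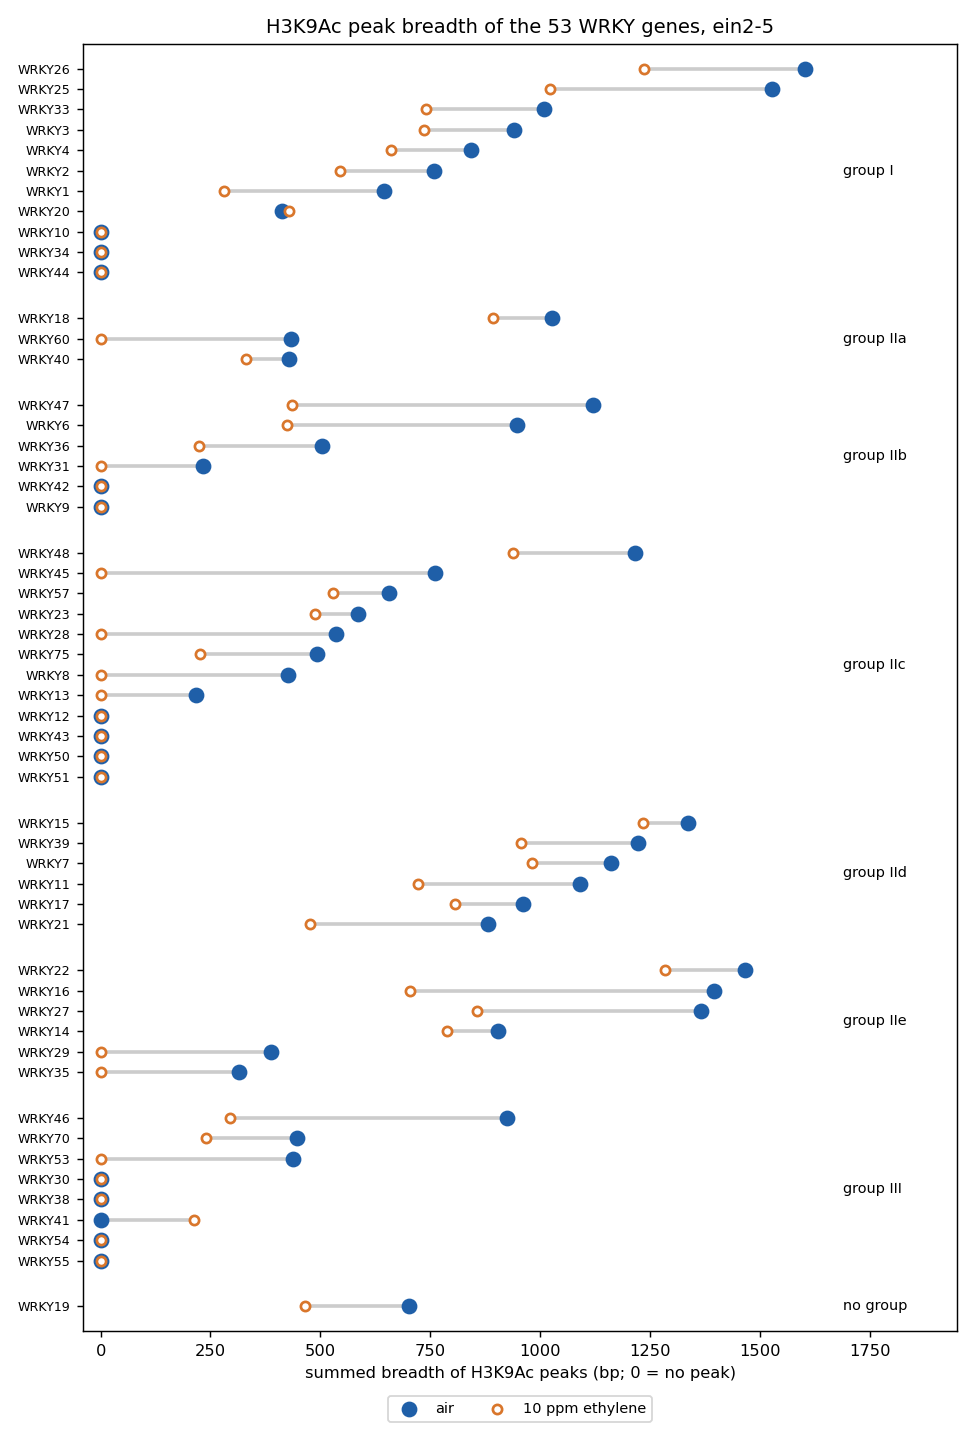
Each row is a WRKY gene, and the horizontal axis gives the summed breadth in bp of the H3K9Ac peaks assigned to it in air (filled blue) and in 10 ppm ethylene (open orange), with 0 for no peak and a grey line joining the values. The open symbols lie left of the filled ones for 29 of the 30 genes marked in both lists, and WRKY20 and WRKY41 are the genes with a larger value in ethylene.

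Among the group I genes, WRKY26 (AT5G07100, chr5:2204206-2205965) and WRKY25 (AT2G30250, chr2:12903208-12905338), which act with WRKY33 in heat tolerance, had the largest summed breadths. WRKY26 carried 1602 bp in air compared with 1237 bp in ethylene, and WRKY25 carried 1529 bp and 1023 bp. Part of these totals was not over the WRKY gene itself: each of the 2 genes had a second peak upstream of its start, lying over the neighbouring genes AT5G07090 and AT2G30260, respectively. Within the gene bodies, peaks covered 47.5% of WRKY26 in air and 36.6% in ethylene, and 53.4% and 31.6% of WRKY25. The summits of the peaks inside the 2 genes were close in height between the lists, with 272 and 273 tags for WRKY26 and 348 and 346 tags for WRKY25.

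WRKY33 (AT2G38470, chr2:16108235-16110766), a substrate of the immune MAP kinases that activates camalexin synthesis genes, carried 1 peak in each list, of 1008 bp for air and 741 bp for ethylene, starting 134 bp and 310 bp downstream of the TSS. Its summit held 319 tags in air (95% exact binomial interval over the 400 positions, 302 to 334) and 308 in ethylene (290 to 324), and both summits lay in a coding exon, 427 bp and 430 bp from the TSS. The height was thus nearly the same while the fold enrichment over the local background was 3.24 in air and 1.87 in ethylene. A long noncoding RNA gene on the opposite strand, AT2G08965 (chr2:16108698-16108969), lies under the same peak. The peak ended within the first heptad site printed above in air, at position 16109376, and short of it in ethylene.

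The other marked group I genes each carried a peak in both lists. WRKY3 and WRKY4, a closely related pair with roles in resistance to necrotrophic fungi, had 941 bp and 843 bp in air and 737 bp and 660 bp in ethylene. WRKY2, which acts in pollen and embryo development, had 759 bp and 545 bp, and WRKY1 had 645 bp and 282 bp. WRKY20 (AT4G26640, chr4:13437005-13441884) was the only WRKY gene marked in both lists that was broader in ethylene, with 428 bp against 412 bp in air, and 3.21% of all coding genes marked in both lists were broader in ethylene. Its peaks also lay farther into the gene than those of most members, with summits 1236 bp and 1232 bp from the TSS and 245 and 237 tags.

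In group IIa, whose 3 members form complexes with each other and restrain defence, the peaks differed in breadth. WRKY18 (AT4G31800, chr4:15382777-15385100) had 1 air peak of 1027 bp, and in ethylene 2 peaks of 669 bp and 225 bp separated by 67 bp. WRKY40 (AT1G80840, chr1:30383561-30385499) had 429 bp in air compared with 330 bp in ethylene with 262 and 252 summit tags. WRKY60 (AT2G25000, chr2:10629662-10631413) had 433 bp in air with 166 summit tags, and no ethylene peak. WRKY40 and WRKY60 were thus alike in breadth in air but had different summit heights.

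Group IIb was led by WRKY47 (AT4G01720, chr4:744804-748554) with 1121 bp in air compared with 436 bp in ethylene, and by WRKY6 (AT1G62300, chr1:23016569-23019494), a regulator of senescence and phosphate export, with 948 bp and 424 bp. Their summit tags changed less than their breadth, from 264 in air to 270 in ethylene for WRKY47 and from 268 to 249 for WRKY6. WRKY6 had 2 air peaks, and the one without an ethylene counterpart was the lower of the 2, with 148 tags. WRKY36 had 504 bp and 224 bp, and WRKY31 (AT4G22070, chr4:11691172-11694590) had an air peak of 233 bp with 140 tags (interval 121 to 160), the lowest summit of any marked WRKY gene in air. Of the breadth in air, the 3 group IIb genes marked in both lists had a median of 44.4% in ethylene, against 75.2% over the 30 WRKY genes marked in both.

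In group IIc, WRKY48 (AT5G49520, chr5:20090648-20093346), a repressor of basal defence, was broadest, with 1217 bp in air compared with 938 bp in ethylene and 337 and 319 summit tags. WRKY57, which contributes to drought tolerance, had 657 bp and 530 bp, WRKY23, which acts in auxin-dependent root development, had 586 bp and 488 bp, and WRKY75, which responds to phosphate starvation, had 492 bp and 227 bp. The other marked genes of this group had peaks in air only. WRKY45 (AT3G01970, chr3:325952-327412), an activator of phosphate uptake, had 761 bp in air, of which a peak of 293 bp with 169 tags lay over its own body. The taller WRKY45 peak, with 202 tags, had its summit 488 bp upstream of the start, over the body of the next gene, AT3G01980.

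WRKY28 (AT4G18170, chr4:10061214-10062893), an activator of the salicylic acid synthesis gene ICS1, had 2 air peaks of 209 bp and 327 bp with 166 and 159 tags. WRKY8 (AT5G46350, chr5:18801164-18804056) had 426 bp with 183 tags, and WRKY13 (AT4G39410, chr4:18332606-18334893), which acts in stem development, had 217 bp with 176 tags. The air peaks of these 3 genes were low among the WRKY genes, and none of the 3 had a peak in ethylene.

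Group IId, whose proteins bind calmodulin, was the only group with all of its listed genes marked in both lists. The share of the body covered in air ran from 37.1% for WRKY21 to 89.9% for WRKY15. WRKY15 (AT2G23320, chr2:9924886-9926372) had 1337 bp in air compared with 1234 bp in ethylene, so that peaks covered 89.9% and 83.0% of the gene. WRKY39 (AT3G04670, chr3:1266056-1268378) had 1223 bp and 956 bp, with 352 and 349 summit tags. WRKY15 had the largest share of its body covered among all 53 genes in either list, and 98.6% of marked coding genes had a smaller share in air. WRKY7 had 1161 bp and 981 bp and the tallest WRKY summits, with 371 tags in air (interval 359 to 380) and 372 in ethylene (360 to 381). WRKY11 and WRKY17, a closely related pair that restrains basal resistance, had 1091 bp and 961 bp in air and 722 bp and 807 bp in ethylene, and WRKY21 had 882 bp and 476 bp.

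Group IIe combined broad and narrow peaks. WRKY22 (AT4G01250, chr4:522530-524249), which acts downstream of the flagellin receptor, had 1466 bp in air compared with 1285 bp in ethylene, covering 85.2% and 74.7% of the gene. WRKY29 (AT4G23550, chr4:12291632-12293367), which has been placed in the same pathway, had an air peak of 387 bp with 205 tags and no ethylene peak. WRKY27 had 1367 bp in a single peak in air and 856 bp in 2 peaks in ethylene, separated by 180 bp. WRKY14 had 904 bp and 789 bp, whereas WRKY35 (AT2G34830, chr2:14693696-14696803) had 316 bp with 175 tags in air only.

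WRKY16 (AT5G45050, chr5:18176894-18181973) encodes a protein that joins an immune receptor to a WRKY domain and is divergent from the receptor-type gene AT5G45060. It had 1397 bp in air compared with 704 bp in ethylene, but its tallest summits lay 199 bp and 80 bp upstream of its own start, and peaks covered 16.4% and 5.28% of its body. WRKY19 (AT4G12020, chr4:7201522-7209692), another receptor fusion and the longest of the 53 genes at 8171 bp, had 701 bp and 466 bp. Its peaks covered 3.49% and 2.78% of the body, and the taller of its 2 peaks in each list lay upstream, over AT4G12010. The tallest peak of WRKY16 was therefore shared with its divergent neighbour, whereas that of WRKY19 lay wholly outside WRKY19 and inside its divergent neighbour.

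In group III, 3 of the 8 genes were marked in each list, the lowest share of the groups in air. WRKY46 (AT2G46400, chr2:19043411-19044955) had 2 air peaks of 439 bp and 487 bp with 201 and 210 tags and a single ethylene peak of 295 bp with 181 tags, which left 31.9% of its breadth in air, the smallest value of the 30 genes marked in both lists. WRKY70 (AT3G56400, chr3:20908711-20910623), which promotes salicylic acid responses over those to jasmonate, had 448 bp and 239 bp with 237 and 212 tags. WRKY53 (AT4G23810, chr4:12392370-12393982), a regulator of leaf senescence, had 438 bp in air with 187 tags and no ethylene peak.

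WRKY41 (AT4G11070, chr4:6759098-6760794), a regulator of seed dormancy, was marked in ethylene only. The peak covered 212 bp (chr4:6760442-6760653) with 193 tags (interval 173 to 213) and a fold enrichment of 2.44, and its summit was in a coding exon near the far end of the gene, 1454 bp from the TSS. The body of 3xHMG-box1 (AT4G11080) overlaps the 3′ end of WRKY41, and the peak lay over both genes, so it cannot be told apart which of the 2 carried it. The nearest air peak was 2545 bp away, upstream of WRKY41.

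No peak was found in either list for 3 genes of group I (WRKY10, WRKY34 and WRKY44), 2 of group IIb (WRKY9 and WRKY42), 4 of group IIc (WRKY12, WRKY43, WRKY50 and WRKY51) and 4 of group III (WRKY30, WRKY38, WRKY54 and WRKY55). Of these genes, WRKY10 is known to act in the endosperm, WRKY34 in pollen and WRKY44 in trichomes and the seed coat. WRKY2, described above for pollen and embryo, was marked in both lists, and a link between tissue and marking was not tested. WRKY50 and WRKY51, the genes with the variant heptad, connect salicylic acid with the jasmonate response. WRKY54 and WRKY55 are neighbours on chromosome 2, 919 bp apart, and both were unmarked.

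For each gene without an air peak, the distance to the nearest air peak on either side was measured. It was 756 bp for WRKY43, 828 bp for WRKY55 and 908 bp for WRKY50, each upstream and beyond the 500 bp limit. It was 448 bp for WRKY51 and 663 bp for WRKY30, both downstream, where no window was applied. For WRKY44, WRKY34, WRKY10, WRKY9, WRKY12, WRKY38 and WRKY54 the distance ran from 1583 bp to 4169 bp, and for WRKY42, a repressor of phosphate export, it was 7454 bp. On the inner side of the limit, no call in either list rested on the 500 bp upstream alone (0 genes in air and 0 in ethylene), as every marked gene also had a peak over its body.

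The 9 genes marked in air only had low summits in air, with 140 to 205 tags and a median of 176. With the air list shortened to the length of the ethylene list, 2 of them were still called in air only. These were WRKY8, and WRKY45 through its upstream peak alone. The 30 genes marked in both lists had 203 to 371 tags in air with a median of 288, so the 2 ranges overlapped at their edge by WRKY29, with 205 tags, and WRKY75, with 203. Over all coding genes the medians were 221 tags for genes marked in air only and 288 for genes marked in both. The −log10 p of the tallest peak ran from 2.33 to 8.82 for the 9 genes and from 3.67 to 24.4 for the 30. The WRKY genes that had an air peak and no ethylene peak were therefore mostly those with low summits in air, and whether their acetylation differed between the treatments could not be determined from the lists.

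Where both lists had a peak, it was narrower in ethylene for 29 of the 30 WRKY genes, against 96.7% of all coding genes marked in both. Ethylene minus air, the breadth differed by a median of -250 bp (-363 to -181 bp, a 95% binomial interval that covers the sampling of genes), and by -259 bp for all coding genes. The breadth left in ethylene ranged from 31.9% of that in air for WRKY46 to 92.3% for WRKY15 among the genes that were narrower, and its median was 75.2% in the family and 65.0% over all coding genes. Narrower peaks in ethylene were thus as frequent across the genome as in the family.

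The pileup needed to pass the p-value threshold was computed from the local background at the summit, and no height at a peak edge was measured. Over the WRKY genes with paired peaks, this computed pileup was a median of 52.4% of the summit in air and of 72.2% in ethylene. The values over all coding genes were 55.2% and 74.6%. The control for ethylene was also the shallower of the 2. The part of the threshold and of the control depth in the narrower peaks was not tested.

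The median summed breadth was 843 bp in air against 678 bp for all marked coding genes, and 660 bp against 468 bp in ethylene. The median share of the body under peaks was 29.4% against 26.1% in air and 21.0% against 18.2% in ethylene. These differences were not found in every length class. Among genes of 1000 to 2000 bp, marked members had narrower peaks than marked coding genes, with medians of 536 bp against 702 bp in air and 330 bp against 492 bp in ethylene, and 31.9% against 40.5% of the body covered in air. Among genes of 2000 to 3000 bp they had broader peaks, with 954 bp against 710 bp in air and 739 bp against 481 bp in ethylene, and among genes of 3000 to 6000 bp the medians were 759 bp against 664 bp and 545 bp against 449 bp. Over all 53 genes, with 0 for unmarked ones, the median share was 22.3% in air and 10.5% in ethylene. The air value was 0 with the air list shortened to the length of the ethylene list, and the ethylene value was 0 with a −log10 q of at least 2 or with a window of 500 bp around the TSS. More than 50% of the body was covered in 8 genes (15.1%, against 11.7% of all coding genes) in air and in 2 genes (3.77%, against 4.20%) in ethylene, WRKY15 and WRKY22.

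Breadth did not follow gene length in the family or across the genome. Spearman's rho between gene length and summed breadth was -0.07 over the 39 genes marked in air and -0.00 over all marked coding genes. Between breadth and the tags at the tallest summit it was 0.75 over the 39 genes, against 0.60 over all marked coding genes. The order of breadths was largely kept between the lists, with a rho of 0.83 over the 30 genes marked in both. These coefficients describe genes of the same libraries, and genes are not independent replicates.

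**Figure D3:**
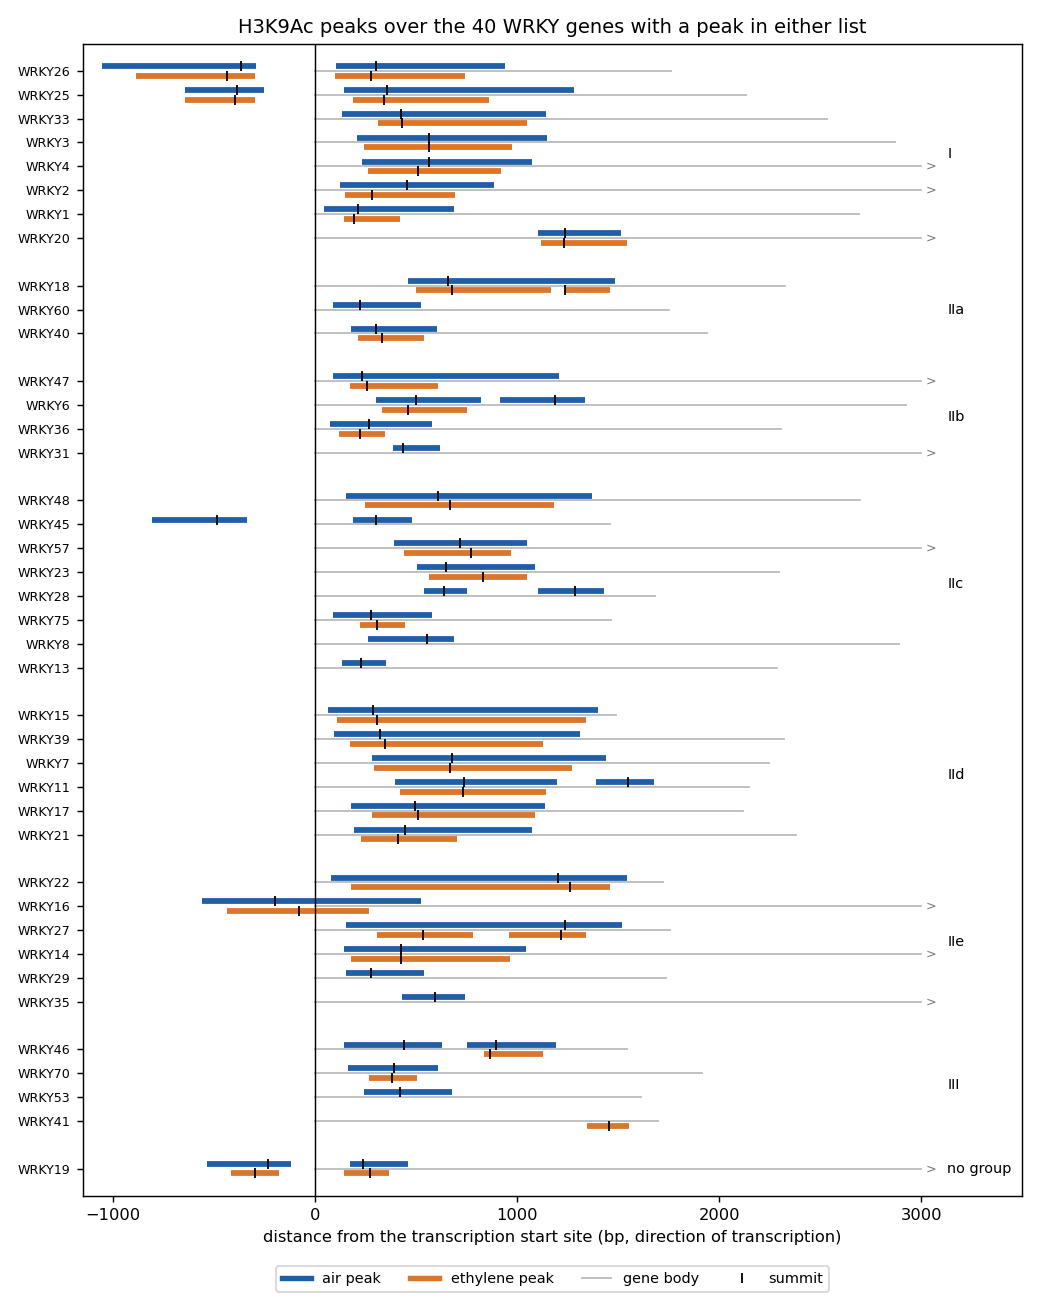
Air peaks (blue) and ethylene peaks (orange) are drawn for the 40 WRKY genes with a peak in either list, against the distance in bp from the TSS (vertical line) in the direction of transcription, with black ticks at summits and grey lines for gene bodies, cut at 3000 bp (the second air peak of WRKY16, 4548 bp from the TSS, is outside the plot). Most peaks start downstream of the TSS and end inside the gene, and the peaks of WRKY26, WRKY25, WRKY45, WRKY16 and WRKY19 left of the line lie over neighbouring genes.

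The peaks lay downstream of the TSS in nearly all members. The tallest air summit was in a coding exon in 26 of the 39 marked WRKY genes, in the 5′ UTR in 5, in an intron in 5 and upstream of the gene in 3 (WRKY16, WRKY19 and WRKY45). The share in coding exons was 66.7%, against 57.1% of all marked coding genes. The median distance from the TSS to the tallest summit was 436 bp in air compared with 430 bp in ethylene, farther than the 320 bp and 335 bp of all marked coding genes. The first edge of the peaks followed at a median of 161 bp from the TSS in air, against 125 bp for all marked coding genes, and at 240 bp against 191 bp in ethylene.

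The part of the gene that encodes the DNA-binding heptad was mostly outside the peaks. The heptad sites lay between 144 bp and 4318 bp from the TSS, with a median of 1302 bp. In air, 9 of the 63 sites were wholly under a peak, in WRKY7, WRKY11, WRKY15, WRKY22, WRKY25, WRKY26, WRKY27, WRKY48 and WRKY75. In ethylene, 5 were, in WRKY15, WRKY22, WRKY26, WRKY48 and WRKY75. In WRKY25 and WRKY26 the covered site was the first of their 2. The sites of WRKY15, WRKY22 and WRKY75 printed above were thus under a peak in both lists.

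The height of the mark was compared by the tags at the summit, which do not depend on the control. For 28 WRKY genes an air peak overlapped a single ethylene peak and the reverse, and the ratio of tags, ethylene over air, scaled to the tags used in each list and corrected for the ceiling of 400 tags, had a median of 1.03 (quartiles 0.987 and 1.07), against a median of 1.04 for all coding genes. The 95% counting interval of the ratio held 1 in 25 genes. It lay above 1 in 2 genes, against 4.79% of all coding genes, and below 1 in 1 gene, against 0.824%. With 28 ratios, these counts are close to the shares over all coding genes.

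WRKY17 and WRKY11, the related group IId pair, were the genes whose interval lay wholly above 1. WRKY17 had 325 tags in air and 342 in ethylene, a ratio of 1.21 (1.01 to 1.44), and WRKY11 had 346 and 360, a ratio of 1.20 (1.01 to 1.44). WRKY2 had the lowest ratio, 0.837 (0.704 to 0.995), with 344 tags in air and 317 in ethylene. The intervals cover counting error only, so none of these ratios can be read as an effect of ethylene. The group III genes WRKY70 and WRKY46 followed WRKY2 from the low end, with ratios of 0.880 (0.727 to 1.06) and 0.903 (0.736 to 1.11), and both intervals held 1.

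**Figure D4:**
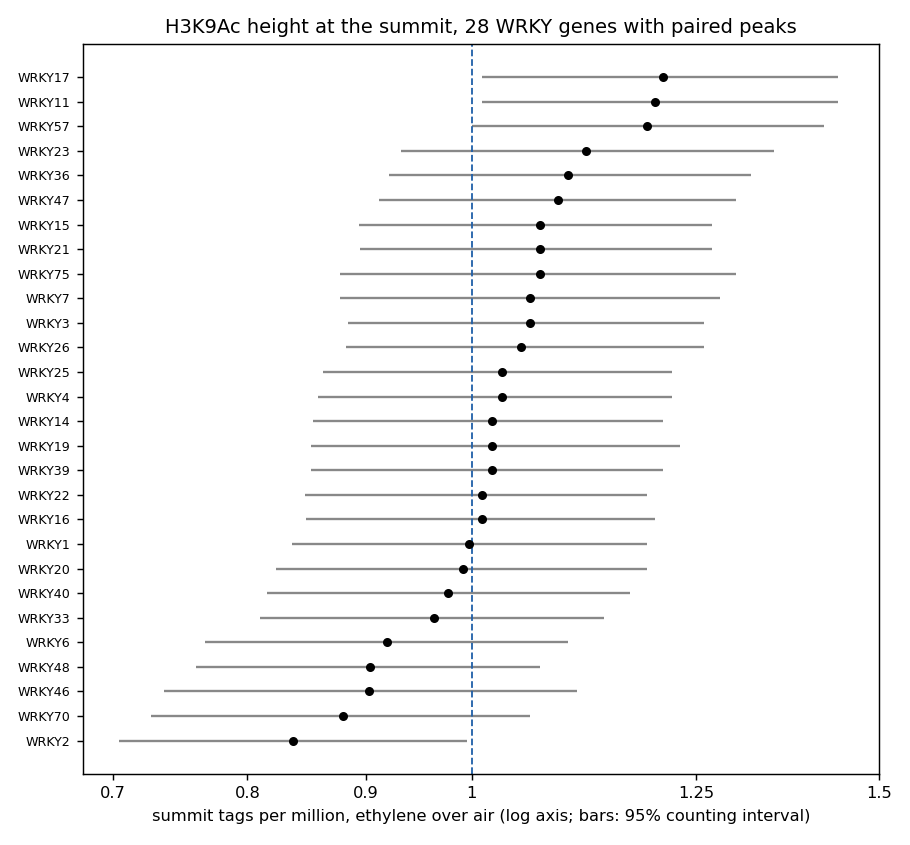
Points give the ratio of H3K9Ac tags at the summit, scaled to the tags used in each list, ethylene over air, on a log axis for the 28 WRKY genes whose air peak overlaps a single ethylene peak, with bars for the 95% counting interval and a dashed line at a ratio of 1. The values run from 0.837 for WRKY2 to 1.21 for WRKY17, and 25 of the 28 bars include 1.

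WRKY proteins bind W boxes, and many WRKY promoters hold them, so the 250 bases upstream of each TSS were searched for TTGACC and TTGACT on both strands. At least 1 match was found for 19 of the 53 genes (35.8%), against 28.4% of the 27443 coding genes with a full window, and 2 or more matches for 8 genes (15.1%), against 6.18%. The 8 genes were WRKY15, WRKY17, WRKY29, WRKY30, WRKY33, WRKY41, WRKY45 and WRKY53, and WRKY30 had the most, with 3. The share with a match was alike in marked and unmarked members, 14 of 39 genes (35.9%) with an air peak and 5 of 14 (35.7%) without. A match gives letters, not a bound site.

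The upstream sequences of 4 of these genes are shown because the genes span the observed states of the mark: WRKY33 was marked in both lists, WRKY53 in air only, WRKY41 in ethylene only and WRKY30 in neither. They are TAIR10.1 (RefSeq) sequence, 5′ to 3′ on the coding strand, ending at the base before the TSS, and the capitals mark the W box letters on either strand.
WRKY33, chr2:16107985-16108234, plus strand: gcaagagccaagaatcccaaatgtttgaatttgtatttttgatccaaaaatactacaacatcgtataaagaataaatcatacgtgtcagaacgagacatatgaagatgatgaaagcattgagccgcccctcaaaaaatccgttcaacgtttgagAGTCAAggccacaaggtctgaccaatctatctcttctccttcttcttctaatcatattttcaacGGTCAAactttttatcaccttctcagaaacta
WRKY53, chr4:12393983-12394232, minus strand: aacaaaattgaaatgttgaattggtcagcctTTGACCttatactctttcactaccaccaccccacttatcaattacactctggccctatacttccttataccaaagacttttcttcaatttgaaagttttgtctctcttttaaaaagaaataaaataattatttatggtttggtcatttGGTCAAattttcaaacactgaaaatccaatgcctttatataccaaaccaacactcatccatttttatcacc
WRKY41, chr4:6758848-6759097, plus strand: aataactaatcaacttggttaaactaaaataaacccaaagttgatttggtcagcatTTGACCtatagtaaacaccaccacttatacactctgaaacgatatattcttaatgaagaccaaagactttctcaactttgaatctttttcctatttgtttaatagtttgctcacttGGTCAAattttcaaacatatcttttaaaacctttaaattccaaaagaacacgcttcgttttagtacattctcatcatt
WRKY30, chr5:8154711-8154960, minus strand: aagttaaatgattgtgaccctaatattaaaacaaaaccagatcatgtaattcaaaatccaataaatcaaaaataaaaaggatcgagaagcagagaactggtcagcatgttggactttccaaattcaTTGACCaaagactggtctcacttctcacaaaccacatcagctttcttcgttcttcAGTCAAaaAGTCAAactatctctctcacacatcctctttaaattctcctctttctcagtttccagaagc

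The W box letters nearest to the TSS ended 26 bp from it in WRKY33, 65 bp in WRKY53, 72 bp in WRKY41 and 55 bp in WRKY30. None of these 4 windows lay under a peak. In 37 of the 39 WRKY genes marked in air (94.9%, against 87.4% of all marked coding genes) no base of the 250 bp upstream was covered. The exceptions were WRKY16, whose upstream peak is shared with a neighbour, and WRKY19, whose upstream peak lay inside a neighbour. The WRKY19 window holds 1 match, and 131 bp of it lay under a peak in air and 70 bp in ethylene.

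Genes that act with WRKY factors were compared with the family from a list of 31 genes. Of these, 25 (80.6%) were marked in air and 23 (74.2%) in ethylene, against 60.9% and 46.0% of all coding genes. All 23 genes marked in both lists were narrower in ethylene, as were 96.7% of all coding genes marked in both. Both shares of marked genes were above those of the WRKY genes, 73.6% and 58.5%, and the difference was not tested. The 31 genes were also longer, with a median of 2819 bp against 2078 bp for all coding genes. Of coding genes of 2000 to 3000 bp, 72.7% were marked in air and 56.6% in ethylene. For those of 3000 to 6000 bp the shares were 77.2% and 57.3%.

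Of the 9 MAP kinase cascade genes, which carry the signal from immune receptors to WRKY proteins, 8 were marked in both lists, and MPK11 was unmarked. MPK3 and MKK5 were the broadest of the 31 genes, with 1933 bp and 1516 bp in air and 1455 bp and 1071 bp in ethylene. Of the 5 receptor complex genes, 4 were marked in both lists, and the receptor gene EFR in neither. The receptor-like kinase gene BIK1 had 1336 bp in air compared with 473 bp in ethylene. Of all coding genes, 72.7% of those of 2000 to 3000 bp and 77.2% of those of 3000 to 6000 bp were marked in air. In ethylene the shares were 56.6% and 57.3%, and the difference of the kinase and receptor genes from these shares was not tested.

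All 4 genes for VQ or WD40 partners, proteins that bind WRKY factors or act beside them, were marked in both lists (MKS1, SIB1, SIB2 and TTG1). All 8 salicylic acid pathway genes were marked in air and 7 in ethylene. The exception was ICS1, the salicylic acid synthesis gene, with an air peak of 269 bp and 161 tags. Of the 5 target genes, 4 were unmarked in both lists, as were 38.9% of all coding genes, namely the camalexin synthesis genes PAD3 and CYP71A13, the pathogenesis-related gene PR1 and the flagellin-induced kinase gene FRK1. The trichome and root hair regulator GL2 had an air peak of 566 bp that covered 1.65% of its body and lay mainly over a neighbouring gene.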

How the data were processed

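H3K9Ac ChIP-seq was analysed for *ein2-5* seedlings in air and in ethylene (2 H3K9Ac and 1 control library each). The authors mapped reads to TAIR10 (the submitters' processing notes name Bowtie 1.1.2, SAMtools and MACS2), pooled both H3K9Ac libraries per treatment and ran MACS2 2.1.0.20150603 at p = 0.01 with 200 bp tags. Each deposited list names the position and breadth of a peak, its pileup signal at the summit, a ratio (fold enrichment against the local background), and −log10 values of p (p-value) and q (q-value). Per the file headers no q-value is given, yet that column is filled, and it was used here for a stricter threshold.

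Genes came from TAIR10.1 (RefSeq). The match of coordinates was checked by shifting the air peaks: 63.9% overlapped a coding TSS or its first 200 bp unshifted, 42.9% at -250 bp and 41.8% at 250 bp. Breadth was summed per gene across peaks over its body or the 500 bp upstream, so a peak can count for 2 genes. Summit tags are the summit pileup divided by the scaling factor (0.301 in air, 0.0999 in ethylene), and 100% came out whole within 0.05. MACS2 kept 1 tag per position and strand, which limits a summit to 400 tags, and ratios were corrected for this ceiling. Of 63192903 and 61025284 H3K9Ac tags in air and ethylene, 45582654 and 43572576 were used. Intervals are exact binomial or counting intervals at 95% and cover counting error only, and those of medians cover the sampling of genes.

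With pooled lists there is no replicate test, and values are set beside those of all 27444 coding genes. Overlaps and ratios were tested on simulated data (Python 3.11.15, scipy 1.17.1). The genes, their groups, the 31 related genes and the rule for named genes were chosen with earlier results of these data known. The rule takes all 53 genes, in full the 2 broadest of each group in air, those with a peak in 1 list only, those broader in ethylene and neighbouring members, and of the 31 genes the counts per role, the 2 broadest and those unmarked in air. BIK1, ICS1 and GL2 and the tallest, lowest or otherwise singled-out genes were named after their values were seen. Alternatives changed the overlap window, the peak threshold, the list length, the gene assignment and the measure of height.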

Additional observations from a re-analysis of the deposited data

How the results depend on the processing

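Over 9 alternatives, 55 of 58 values moved by less than the limit set for them, 3 moved further and 0 reversed. Each value was judged on its own, without regard to the order between values. With the air list shortened to the length of the ethylene list, keeping the lowest p-values, 27 WRKY genes in place of 39 were marked in air. This was fewer than the 31 marked in ethylene, so the order of the 2 counts was the opposite of the main one. Marked in air only were 2 in place of 9 (WRKY8 and WRKY45). WRKY45 stayed marked through its upstream peak over AT3G01980 (−log10 p of 8.82). Its body peak had 5.81, and WRKY23, at 7.39, was already left out. In this setting the median share of the body covered in air was 0 in place of 22.3%, and the median breadth difference was -181 bp. The count marked in air only was 13 with a −log10 q of at least 2 and 6 with a fold enrichment of at least 2. The median ratio of fold enrichments was 0.873, against 1.03 for the ratio of summit tags. The fold enrichment also contains the local background, and the cause of the difference was not tested. Across the alternatives, 27 to 39 genes were marked in air and 25 to 31 in ethylene, 22 to 29 were narrower in ethylene, and the median difference ran from -250 to -181 bp. The median share covered in ethylene was 10.5%, and it was 0 both with a −log10 q of at least 2 and with the window of 500 bp around the TSS. A fold enrichment of at least 2 left out 10 genes in air and 4 in ethylene (WRKY1, WRKY33, WRKY46 and WRKY75). Counting each peak for the nearest gene alone left out WRKY33 in both lists, whose peak went to the overlapping noncoding RNA gene, and WRKY16 in ethylene. WRKY41 lost its ethylene peak with the window around the TSS. No paired analysis was possible because the libraries of a treatment were pooled before peak calling, and for the same reason no library could be left out. The lists hold no value where no peak was called, so an unmarked gene can be acetylated below the threshold. For WRKY genes with paired peaks, the computed threshold was a median of 52.4% of the summit in air and 72.2% in ethylene. No such value exists for unmarked genes.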
